A study of Mus musculus with 20 samples.

Results

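The genes described here are the 10 genes of the mouse major histocompatibility complex (MHC) and of antigen processing that were chosen by name: B2m, H2-K1, H2-D1, Tap1, Tap2, Psmb8, Cd74, H2-Aa, H2-Ab1 and H2-Eb1. They were 10 of the 25655 genes in the deposited tables. Their transcripts were measured in the utricle, a balance organ of the inner ear that carries otoconia, in 4 groups of 5 libraries. All animals were female C57BL/6J mice, which had surgery at the age of 8 weeks and were sampled 4 weeks later. The sham + v mice kept their ovaries and carried a vehicle pellet, and the OVX + v mice were ovariectomized and carried the same kind of pellet. The OVX + E2 mice were ovariectomized and carried an estradiol pellet (50 µg over 60 days), and the OVX + RAL mice were ovariectomized and carried a pellet of raloxifene (2.4 mg over 60 days), a selective estrogen receptor modulator. The OVX + v group was the control of the other 3 groups in the study, so that the comparisons with it share its 5 libraries, and OVX + RAL was also compared with OVX + E2. The labels do not say whether the libraries of a group came from separate animals, and p-values therefore measure only the spread between these libraries.

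MHC class I molecules are made by nearly all nucleated cells and show peptides from the cytosol to T cells. Each consists of a heavy chain, such as those encoded by H2-K1 and H2-D1, and of beta-2-microglobulin, encoded by B2m. Psmb8 encodes a catalytic subunit of the immunoproteasome, which cuts proteins into peptides, and Tap1 and Tap2 encode the subunits of the transporter that carries these peptides into the endoplasmic reticulum. MHC class II molecules are made mainly by antigen-presenting cells such as macrophages, dendritic cells and B cells. H2-Aa encodes a class II alpha chain, H2-Ab1 and H2-Eb1 encode beta chains, and Cd74 encodes the invariant chain that occupies the groove until a peptide is loaded.

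The promoter sequences of 5 class I pathway genes and of 1 class II gene are shown because elements known to control both classes lie in this stretch of the genes. They were taken from RefSeq on the GRCm38.p6 build, from 250 bases before to 50 bases after the start of transcription, and 7 of the 9 genes that were looked for had such an entry. Cd74 was not looked for. For H2-K1, which had 2 entries, the first was used. Capitals mark the letters searched on both strands, GAAA followed after any 2 bases by GAAA (the core of the interferon-stimulated response element, ISRE), TTCNNNGAA (the gamma-activated site, GAS), GGGATTCCC (a kB site), ATTGG or its reverse complement CCAAT (the Y box) and TGACG or its reverse complement CGTCA (the X2 box).
B2m (chr2:122147437-122147736, plus strand): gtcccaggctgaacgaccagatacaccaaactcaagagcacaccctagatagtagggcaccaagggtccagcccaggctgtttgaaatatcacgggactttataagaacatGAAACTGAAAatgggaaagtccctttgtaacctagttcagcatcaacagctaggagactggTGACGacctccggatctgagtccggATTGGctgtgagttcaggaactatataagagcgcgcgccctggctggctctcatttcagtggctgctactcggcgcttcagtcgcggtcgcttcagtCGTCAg
H2-K1 (chr17:34000298-34000597, minus strand): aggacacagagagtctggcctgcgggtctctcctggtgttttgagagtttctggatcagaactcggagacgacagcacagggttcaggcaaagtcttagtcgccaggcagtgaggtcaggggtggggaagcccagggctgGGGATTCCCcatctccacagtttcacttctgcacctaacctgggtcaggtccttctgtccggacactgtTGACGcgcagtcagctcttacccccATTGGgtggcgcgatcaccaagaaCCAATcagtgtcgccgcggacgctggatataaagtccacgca
H2-D1 (chr17:35262844-35263143, plus strand): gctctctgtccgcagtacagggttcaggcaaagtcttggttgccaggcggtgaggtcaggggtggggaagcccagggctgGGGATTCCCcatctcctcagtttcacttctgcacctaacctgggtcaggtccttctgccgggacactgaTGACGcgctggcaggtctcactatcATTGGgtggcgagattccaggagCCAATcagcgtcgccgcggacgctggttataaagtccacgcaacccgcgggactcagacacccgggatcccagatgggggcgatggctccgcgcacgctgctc
Tap1 (chr17:34187306-34187605, plus strand): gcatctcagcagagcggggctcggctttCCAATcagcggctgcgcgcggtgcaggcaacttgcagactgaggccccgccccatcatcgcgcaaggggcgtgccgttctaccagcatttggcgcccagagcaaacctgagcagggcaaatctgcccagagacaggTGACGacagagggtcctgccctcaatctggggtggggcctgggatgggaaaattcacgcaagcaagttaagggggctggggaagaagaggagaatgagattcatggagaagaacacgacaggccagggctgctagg
Psmb8 (chr17:34197945-34198244, plus strand): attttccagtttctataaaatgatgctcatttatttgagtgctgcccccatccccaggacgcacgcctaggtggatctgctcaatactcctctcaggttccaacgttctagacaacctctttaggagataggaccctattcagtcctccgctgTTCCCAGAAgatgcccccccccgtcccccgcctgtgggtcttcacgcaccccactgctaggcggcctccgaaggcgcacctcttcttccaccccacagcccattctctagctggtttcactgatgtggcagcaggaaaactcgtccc
H2-Aa (chr17:34287774-34288073, minus strand): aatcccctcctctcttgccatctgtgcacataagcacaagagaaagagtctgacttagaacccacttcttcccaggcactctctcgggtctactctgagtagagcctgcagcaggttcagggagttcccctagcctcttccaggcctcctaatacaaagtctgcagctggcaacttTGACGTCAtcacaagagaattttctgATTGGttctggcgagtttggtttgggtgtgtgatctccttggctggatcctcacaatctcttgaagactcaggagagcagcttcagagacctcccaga

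The ISRE letters stood in the B2m promoter, with their first base 139 bases before the start, and were present in 3.44% of the 32851 promoters of the table. The kB letters stood in the H2-K1 promoter (110 bases before the start) and in the H2-D1 promoter (170 bases before the start), while 0.353% of all promoters held them. The X2 box letters (41 and 101 bases before the start) and the first Y box letters (16 and 76 bases) were shifted alike between these 2 genes. Their distances therefore depend on the start given by the entry used, and H2-K1 had 2 entries. Y box and X2 box letters were both present in B2m, H2-K1, H2-D1, Tap1 and H2-Aa, but they are short, and 37.4% and 20.8% of all promoters held them. In B2m, H2-K1, H2-D1 and H2-Aa, X2 box letters stood shortly before Y box letters (78 and 53 bases before the start in B2m). In Tap1 the Y box letters came first, 222 bases before the start, and the X2 box letters stood at 86 bases. In H2-Aa, the X2 letters of the 2 strands overlapped in 1 run. The Psmb8 promoter held the GAS letters, as did 8.30% of all promoters, and the H2-Eb1 promoter, which is not shown, held the Y box letters alone. A match of letters is a description of the sequence and not of a bound site.

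The input was 1 ng of total RNA per library, and the kit reads the 3′ ends of mRNA. Levels are given in CPM, the counts of a gene scaled to a library total of 1000000 counts. They were not divided by transcript length, since the kit makes its reads at the transcript end, and levels of different genes are set side by side on this scale only. The libraries held between 1435156 and 2081747 counts in the sham + v, OVX + v and OVX + RAL groups, and between 1123053 and 1507667 counts in the OVX + E2 group. A gene was taken as detected with 3 counts, which made 1.44 to 2.67 CPM. The OVX + E2 group also had the fewest genes with a count, 7427 to 9680, against 8651 to 10625 in the sham + v group, which overlapped with it, and 10004 to 10694 in the OVX + v group. Of the marker lists, hair cell genes summed to 344 to 1263 CPM and supporting cell and otoconial genes to 1327 to 4497 CPM. Slc26a5, which was listed with the hair cell genes without regard to the organ, had no counts in the 20 libraries.

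The 10 genes fell into 2 sets by how often they were counted. B2m, H2-K1 and H2-D1 had counts in every library, with means over the 20 libraries of 851, 432 and 299 CPM. The other 7 genes had means between 6.19 CPM (Psmb8) and 30.9 CPM (H2-Aa), and each lacked any count in at least 1 library. Tap2 had no count in 1 library, H2-Aa in 4, H2-Ab1 in 5, Cd74 in 6, H2-Eb1 in 7, Tap1 in 8 and Psmb8 in 9. Counting each gene in each library, 40 of 50 were detected in the sham + v group, 40 of 50 in the OVX + v group, 33 of 50 in the OVX + E2 group and 43 of 50 in the OVX + RAL group. All 10 genes were detected in 3 libraries, sham + v replicate 1 and OVX + RAL replicates 18 and 19, and the fewest, 5, in OVX + E2 replicate 14.

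**Figure D1:**
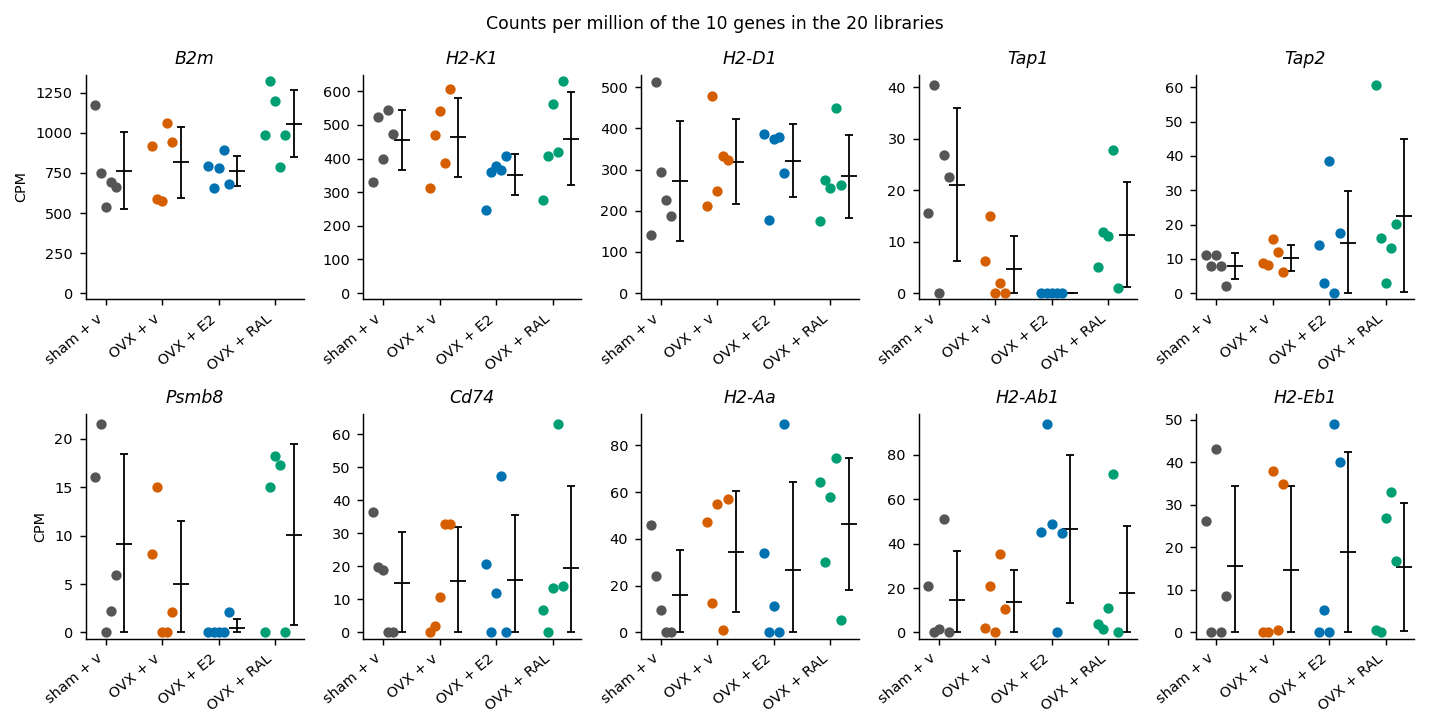
CPM (vertical axes from 0) of the 10 genes in each of the 20 libraries, by group on the horizontal axes. Each point is 1 library, and the bar beside each group is the mean with its SD (n = 5), drawn down to 0 where the SD exceeded the mean. B2m, H2-K1 and H2-D1 lie above 0 in every library, and Tap1 lies at 0 in the 5 OVX + E2 libraries.

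None of the 10 genes passed an adjusted p of 0.05 in any of the 4 comparisons, in edgeR's quasi-likelihood test, adjusted over all genes tested by the Benjamini-Hochberg method. The test called few genes of any kind: 0.0145% of 13825 genes between sham + v and OVX + v, 0.0584% of 13695 between OVX + E2 and OVX + v, 0.0286% of 14002 between OVX + RAL and OVX + v, and 0.0727% of 13753 between OVX + RAL and OVX + E2. All 10 genes were tested in every comparison. Without adjustment, a p under 0.05 was reached by 0 of the 10 genes in the sham + v comparison (12.5% of all genes tested), by 1 in the OVX + E2 comparison (13.9%), by 0 in the OVX + RAL comparison (12.1%) and by 1 between OVX + RAL and OVX + E2 (14.1%). This gene was Tap1 on both occasions, and it had no counts in OVX + E2. The 5 values of one group lay wholly above or below those of the other for 0 of the 10 genes in the first 3 comparisons, where 0.499%, 0.832% and 0.578% of all genes did so, and for Tap1 between OVX + RAL and OVX + E2, where 0.909% of all genes did so. The median log2 fold change of the 10 genes was -0.04 in sham + v, -0.04 in OVX + E2 and 0.37 in OVX + RAL, each against OVX + v, and the medians over all genes tested were -0.02, -0.06 and -0.03. Between OVX + RAL and OVX + E2 it was 0.43, beside 0.01 over all genes tested.

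The heavy chains and beta-2-microglobulin were the best measured of the genes. B2m (chr2:121978167-121983564, plus strand, 4 exons, GRCm39) had 1177, 752, 538, 697 and 663 CPM in the sham + v libraries, 916, 586, 578, 1065 and 943 CPM in the OVX + v libraries, 794, 656, 783, 895 and 682 CPM in the OVX + E2 libraries and 990.1, 1325, 1200.1, 786 and 987 CPM in the OVX + RAL libraries. The OVX + RAL libraries held the highest value, and 4 of them lay above every OVX + E2 library, but the lowest OVX + RAL library was below 2 of the OVX + E2 libraries. The group means were 1058 ± 209 CPM in OVX + RAL, 818 ± 222 CPM in OVX + v, 765 ± 243 CPM in sham + v and 762 ± 95.8 CPM in OVX + E2 (SD, n = 5 in each), and neighbours in this order overlapped. For OVX + RAL, the log2 fold change was 0.37 (95% interval -0.07 to 0.81) against OVX + v, with an edgeR adjusted p of 0.664, and 0.47 (95% interval -0.01 to 0.96) against OVX + E2, with an edgeR adjusted p of 0.366. Against OVX + v, sham + v gave -0.10 (95% interval -0.54 to 0.35) and OVX + E2 -0.10 (95% interval -0.57 to 0.36). The intervals exclude a doubling or halving of B2m in every comparison.

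H2-K1 (chr17:34214991-34219321, minus strand, 8 exons), a classical class I heavy chain, had 329.7, 523, 398, 545 and 474 CPM in the sham + v libraries, 312, 469, 541, 385 and 608 CPM in the OVX + v libraries, 248, 359, 379, 366 and 409 CPM in the OVX + E2 libraries and 276, 408, 562, 420.2 and 631 CPM in the OVX + RAL libraries. The highest OVX + E2 value was below 3 of the 5 OVX + v values, while the groups overlapped throughout. Its log2 fold change against OVX + v was -0.03 (95% interval -0.57 to 0.52) in sham + v, -0.40 (95% interval -1.03 to 0.24) in OVX + E2 and -0.01 (95% interval -0.55 to 0.53) in OVX + RAL, with edgeR adjusted p-values of 0.9998, 0.913 and 0.9999. Group means were 463 ± 118 CPM in OVX + v, 459 ± 139 CPM in OVX + RAL, 454 ± 89.4 CPM in sham + v and 352 ± 61.3 CPM in OVX + E2 (SD, n = 5 in each).

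H2-D1 (chr17:35481706-35486475, plus strand, 8 exons), the other classical heavy chain, had 142, 512, 295, 226 and 186 CPM in the sham + v libraries, 211, 478, 248, 334 and 324 CPM in the OVX + v libraries, 386, 177, 374, 379 and 292 CPM in the OVX + E2 libraries and 174, 276, 255, 451 and 263 CPM in the OVX + RAL libraries. Sham + v replicate 2 and OVX + v replicate 7 were the highest, and the range of each group covered most of the others. Against OVX + v, the log2 fold change was -0.23 (95% interval -0.86 to 0.40) in sham + v, 0.01 (95% interval -0.68 to 0.71) in OVX + E2 and -0.17 (95% interval -0.77 to 0.44) in OVX + RAL, with edgeR adjusted p-values of 0.9998, 0.9997 and 0.9999. Between OVX + RAL and OVX + E2 it was -0.18 (95% interval -0.93 to 0.57).

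The counts of H2-K1 and H2-D1 may be uncertain to the extent that reads fit several class I genes. The study states that mapping was done with default settings, and does not spell out how such reads were counted. Of the 338 windows of 63 bases in the last 400 bases of each transcript (GENCODE vM39), none was found in another class I gene for either of them. With up to 2 mismatches, 5.92% of the H2-K1 windows matched H2-D1 or H2-K2, and 5.33% of the H2-D1 windows matched H2-K1 or H2-Q2. In addition, 16 of the 338 H2-D1 windows (4.73%) occurred without mismatches in 39 genes that are not class I genes, and the other 9 genes had no such window.

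**Figure D2:**
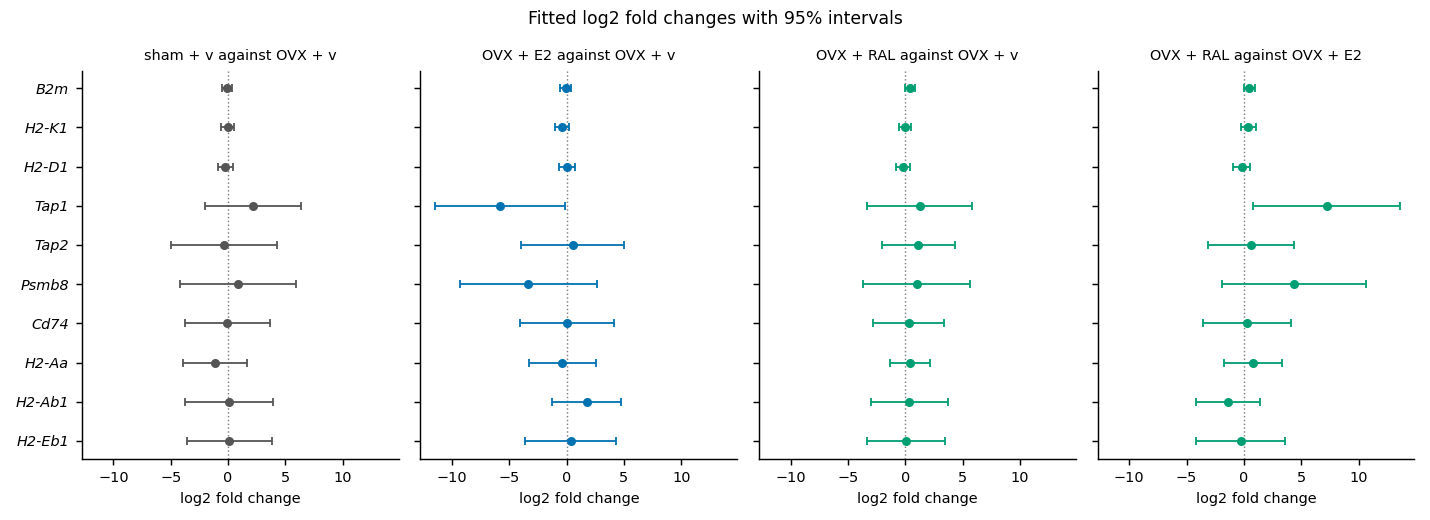
Fitted log2 fold changes (horizontal axes) of the 10 genes (vertical axis) in the 4 comparisons named above the panels, from edgeR. Points are estimates, lines are 95% intervals, and the dotted line marks no difference, with 5 libraries in each group. The intervals of B2m, H2-K1 and H2-D1 are narrow, those of the other 7 genes span several log2 units, and only those of Tap1 in the panels of OVX + E2 against OVX + v and OVX + RAL against OVX + E2, where OVX + E2 had no counts of it, leave out 0.

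Of the genes that supply peptides, Tap1 had the largest fitted differences between groups. Tap1 (chr17:34406527-34416199, plus strand, 11 exons) had 15.6, 40.4, 0, 26.8 and 22.6 CPM in the sham + v libraries, 6.23, 15.1, 0, 1.98 and 0 CPM in the OVX + v libraries, 0, 0, 0, 0 and 0 CPM in the OVX + E2 libraries and 5.14, 11.8, 11.2, 27.8 and 0.961 CPM in the OVX + RAL libraries. None of the 5 OVX + E2 libraries held a count of Tap1, which allows up to 1.99 to 2.67 CPM in a library, whereas each of the 5 OVX + RAL libraries held at least 2 counts. The lowest of these values, 0.961 CPM in replicate 20, is itself below that limit, so that the gap between the groups is not resolved for this library. The OVX + v values overlapped with OVX + E2, since 2 of them were also 0, and 4 of the 5 sham + v values lay above every OVX + v value. Relative to the level that 3 counts make in each OVX + E2 library, Tap1 was at least 4.98-fold higher in OVX + RAL and at least 2.03-fold higher in OVX + v. One library carried much of each bound. Without OVX + RAL replicate 19 (27.8 CPM) the bound of OVX + RAL was 3.18-fold, and without OVX + v replicate 7 (15.1 CPM) that of OVX + v was 0.897, which gives no bound above 1. The unadjusted edgeR p was 0.0274 between OVX + RAL and OVX + E2 and 0.0434 between OVX + E2 and OVX + v, and the adjusted p-values of 0.353 and 0.351 did not pass. With no counts in OVX + E2, Tap1 could be tested only through the counts of the other group, and such genes reached unadjusted p-values of this size with little data: H2-Ob, at 0 in OVX + E2 and detected in 1 OVX + v library, had a p of 0.0441 against OVX + v. The unadjusted values therefore carry no weight here. Over the other settings and the fits without 1 library, the adjusted p, where a fit gave one, ranged from 0.327 to 0.823 and from 0.325 to 0.836. In sham + v the log2 fold change against OVX + v was 2.16 (95% interval -2.02 to 6.35), with an edgeR adjusted p of 0.9998. Without OVX + v replicate 7 it was 3.32 (edgeR adjusted p = 0.978), and it ran from 1.79 to 3.32 over the fits without 1 library.

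Depth and markers of other cells in the OVX + E2 group are given here beside Tap1. This group had the lowest depth and the fewest genes with a count. The neutrophil and marrow genes (8 listed, 2 of them at 0 in all 20 libraries) summed to 0 to 0.89 CPM in OVX + E2, with 1 gene counted, against 0 to 203 CPM in OVX + v, 0 to 141 CPM in sham + v and 0 to 62.8 CPM in OVX + RAL. The middle-ear mucosa genes (5 listed, 2 of them at 0 in all 20 libraries) summed to 0 to 231 CPM in OVX + E2, 0 to 332 CPM in sham + v, 0 to 744 CPM in OVX + v and 37.5 to 1738 CPM in OVX + RAL, so that the ranges of all 4 groups overlapped. Bpifa1 made up most of these sums, with a mean of 206 CPM over the 20 libraries. Of the other counted mucosa genes, Reg3g was detected in 2 libraries and Bpifb1 in 1. S100a8, S100a9, Ngp, Camp, Ltf, Elane, Mpo and Retnlg make up the first of these lists, and the range of every group in it included 0. Between OVX + E2 and OVX + v, 6 neutrophil and marrow genes and 2 mucosa genes could be tested, and 0 were called in either list. Without adjustment, an edgeR p under 0.05 was reached by these 6 and 2 genes, all lower in OVX + E2 (13.9% of all genes tested). S100a8, S100a9, Ngp, Camp, Retnlg and Reg3g had no counts in OVX + E2, as with Tap1. Between OVX + RAL and OVX + E2, 0 of 4 neutrophil and marrow genes were called, and the 1 mucosa gene tested, Bpifa1, was called higher in OVX + RAL. The 6 skeletal muscle genes summed to at most 31.2 CPM in OVX + E2 and 78.9 CPM in sham + v. Their sums reached 144 CPM in OVX + v and 345 CPM in OVX + RAL. Schwann cell genes (6 listed) had their highest median sum in OVX + E2, 4302 CPM, against 2313, 2946 and 2335 CPM in sham + v, OVX + v and OVX + RAL. In both lists the ranges of the groups overlapped. In bulk libraries, fewer cells of a type and less RNA per cell cannot be told apart. The part of depth or of these cells in the Tap1 result was not tested.

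Psmb8 (chr17:34416695-34420428, plus strand, 6 exons), which begins 495 bases beyond the end of Tap1 on the same strand, had 16.1, 21.5, 0, 2.24 and 5.97 CPM in the sham + v libraries, 8.10, 15.1, 0, 0 and 2.09 CPM in the OVX + v libraries, 0, 0, 0, 0 and 2.10 CPM in the OVX + E2 libraries and 0, 15.1, 18.2, 17.3 and 0 CPM in the OVX + RAL libraries. Only 1 of the 5 OVX + E2 libraries, replicate 15, held counts of it (3 counts), while 3 of the 5 OVX + RAL libraries lay near 15 to 18 CPM and the other 2 had none. Summed over the libraries, the level of Psmb8 in OVX + RAL was 21.4 times that in OVX + E2 (92 against 3 counts, 95% exact interval 7.10 to 106), and that in OVX + v was 10.5 times (40 against 3 counts, 3.34 to 53.0). Of the 40 counts in OVX + v, 24 came from replicate 7, and without it the ratio was 5.18 (16 against 3 counts, 1.48 to 27.7). These intervals cover counting error only, and with the spread between libraries the differences did not pass, with edgeR adjusted p-values of 0.803 and 0.993.

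Tap2 (chr17:34422501-34435295, plus strand, 12 exons), the partner of Tap1 in the transporter, had 11.2, 7.87, 11.3, 7.83 and 1.99 CPM in the sham + v libraries, 8.72, 8.16, 15.9, 11.9 and 6.27 CPM in the OVX + v libraries, 13.9, 3.02, 38.5, 0 and 17.5 CPM in the OVX + E2 libraries and 60.7, 16.2, 2.94, 13.1 and 20.2 CPM in the OVX + RAL libraries. Its values in sham + v and OVX + v stayed between 1.99 and 15.9 CPM, and those in OVX + E2 and OVX + RAL ran from 0 to 60.7 CPM, with OVX + RAL replicate 16 the highest. In OVX + RAL, the log2 fold change of Tap2 was 1.15 (95% interval -2.07 to 4.36) against OVX + v and 0.63 (95% interval -3.11 to 4.37) against OVX + E2, with edgeR adjusted p-values of 0.9999 and 1.0000. Over the fits without 1 library, the value against OVX + v ran from 0.36 to 1.43. Tap2 was counted in 4 of the 5 OVX + E2 libraries, in which Tap1 had no counts.

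Over the 20 libraries, Tap1 and Psmb8 were counted together. Both had counts in 9 libraries and both had none in 6. Pearson's r on log2(CPM + 1) was 0.816 and Spearman's rho 0.797, each with a permutation p of 0.0001 and a Benjamini-Hochberg adjusted p of 0.0012 over the 12 pairs of genes compared within the class I chains, the peptide supply genes and the class II genes. Pearson's r was 0.762 without the 2 libraries farthest from the median of Tap1, 0.769 with group means removed and 0.775 in the 15 libraries other than OVX + E2. Among the 9 libraries with counts of both genes, r was -0.03 (exact permutation p = 0.930), so that the relation rests on which libraries had counts of these genes. For the neighbouring genes, the values were lower. Psmb9, another immunoproteasome subunit, overlaps the start of Tap1 by 212 bases on the opposite strand and had an r of 0.03 with Tap1, and Tap2, which begins 2072 bases beyond Psmb8, had an r of -0.17 with Psmb8 (adjusted permutation p = 0.830).

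**Figure D3:**
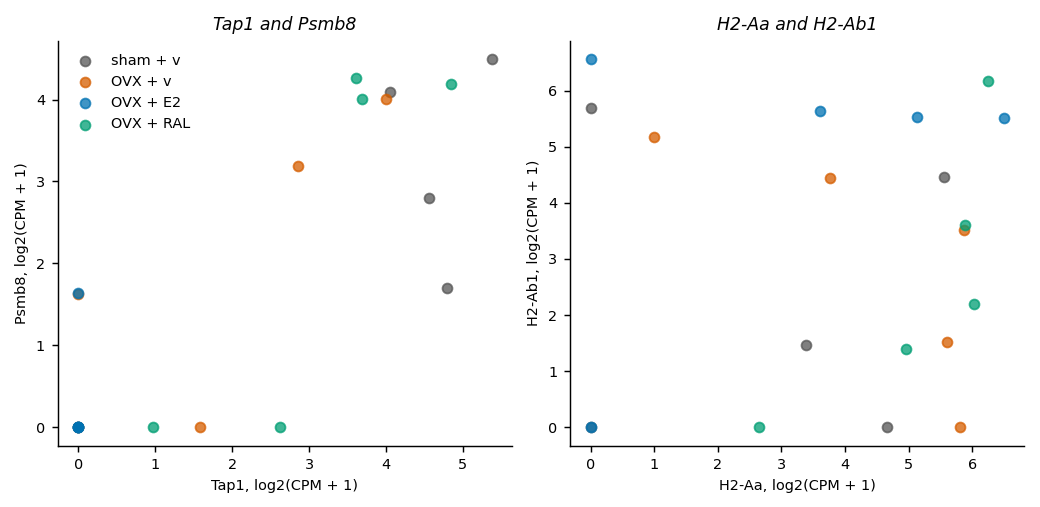
Levels of 2 pairs of neighbouring genes in the 20 libraries, as log2(CPM + 1) on both axes, coloured by group, with 1 point per library. Tap1 and Psmb8 (left) are both at 0 in 6 libraries and both counted in 9, and H2-Aa and H2-Ab1 (right) show no common order, with an r of 0.04.

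The class II genes had counts in 3 to 5 libraries of every group, at levels that differed widely between libraries. Cd74, the invariant chain (mouse chromosome 18), had 36.5, 19.9, 18.96, 0 and 0 CPM in the sham + v libraries, 0, 1.88, 10.8, 32.7 and 32.7 CPM in the OVX + v libraries, 20.6, 0, 12.02, 47.2 and 0 CPM in the OVX + E2 libraries and 6.69, 0, 13.5, 62.96 and 13.9 CPM in the OVX + RAL libraries. Every group held values of 0 and values above 30 CPM, and the highest value was that of OVX + RAL replicate 19. The group means lay between 15.1 ± 15.4 CPM in sham + v and 19.4 ± 25.00 CPM in OVX + RAL (SD, n = 5 in each). The log2 fold change against OVX + v was -0.05 (95% interval -3.73 to 3.64) in sham + v, 0.03 (95% interval -4.03 to 4.09) in OVX + E2 and 0.31 (95% interval -2.78 to 3.41) in OVX + RAL.

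H2-Aa (chr17:34501718-34506797, minus strand, 5 exons), the alpha chain, had 45.8, 24.1, 9.48, 0 and 0 CPM in the sham + v libraries, 47.3, 12.5, 54.98, 0.991 and 57.1 CPM in the OVX + v libraries, 33.8, 0, 11.2, 0 and 89.1 CPM in the OVX + E2 libraries and 64.3, 30.2, 58.2, 74.5 and 5.28 CPM in the OVX + RAL libraries. It was counted in each OVX + RAL and each OVX + v library, and in 3 libraries each of the sham + v and OVX + E2 groups, where the counted values overlapped with those of the other groups. Relative to OVX + v, the log2 fold change was -1.12 (95% interval -3.91 to 1.67) in sham + v, -0.36 (95% interval -3.25 to 2.52) in OVX + E2 and 0.43 (95% interval -1.32 to 2.17) in OVX + RAL, with edgeR adjusted p-values of 0.9998, 0.9997 and 0.9999. Over the fits without 1 library it ran from -2.03 (without sham + v replicate 1) to -0.80 in sham + v, from -1.61 (without OVX + E2 replicate 15) to -0.0432 (without OVX + E2 replicate 12) in OVX + E2 and from 0.11 to 0.71 in OVX + RAL.

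H2-Ab1 (chr17:34476663-34488393, plus strand, 6 exons), the beta chain that pairs with it, had 20.9, 0, 1.78, 50.9 and 0 CPM in the sham + v libraries, 1.87, 20.7, 0, 35.2 and 10.5 CPM in the OVX + v libraries, 45.1, 93.7, 48.9, 0 and 44.9 CPM in the OVX + E2 libraries and 3.60, 1.62, 11.2, 71.3 and 0 CPM in the OVX + RAL libraries. In OVX + E2, 4 libraries lay above every OVX + v library and the remaining one had no counts. The log2 fold change of OVX + E2 was 1.76 (95% interval -1.24 to 4.76) against OVX + v, with an edgeR adjusted p of 0.958, and that of OVX + RAL against OVX + E2 was -1.40 (95% interval -4.22 to 1.41), with an edgeR adjusted p of 0.99996. Over the fits without 1 library, the value of OVX + E2 against OVX + v ran from 1.34 to 2.48. OVX + RAL replicate 19 held 71.3 CPM where the other 4 libraries of its group held 0 to 11.2 CPM, and without it the log2 fold change of OVX + RAL against OVX + E2 was -3.49 (edgeR adjusted p = 0.469).

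H2-Eb1 (chr17:34524841-34535648, plus strand, 6 exons), the other beta chain, had 26.3, 0, 43.3, 0 and 8.62 CPM in the sham + v libraries, 0, 0, 37.98, 0.495 and 34.8 CPM in the OVX + v libraries, 0, 5.29, 0, 48.97 and 39.98 CPM in the OVX + E2 libraries and 0.514, 0, 27.02, 33.1 and 16.8 CPM in the OVX + RAL libraries. In each group at least 1 library had no counts and at least 1 lay above 30 CPM. The log2 fold change against OVX + v was 0.09 (95% interval -3.62 to 3.81) in sham + v, 0.36 (95% interval -3.59 to 4.31) in OVX + E2 and 0.08 (95% interval -3.33 to 3.49) in OVX + RAL. For these 4 genes, differences of several-fold between groups were not detectable at this depth and spread.

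No pair of class II genes passed the test of a correlation over the 20 libraries. Pearson's r of the 6 pairs among Cd74, H2-Aa, H2-Ab1 and H2-Eb1 ran from -0.17 to 0.37, the highest between Cd74 and H2-Eb1 (rho 0.376, adjusted permutation p-values 0.670 for r and 0.618 for rho). H2-Aa and H2-Ab1, whose products form 1 molecule, were both counted in 13 libraries and both at 0 in 2, and their r was 0.04 (adjusted permutation p = 0.872). Among B2m, H2-K1 and H2-D1 the 3 values of r were -0.11, -0.21 and 0.18, and none passed (adjusted permutation p-values 0.859, 0.830 and 0.830).

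**Figure D4:**
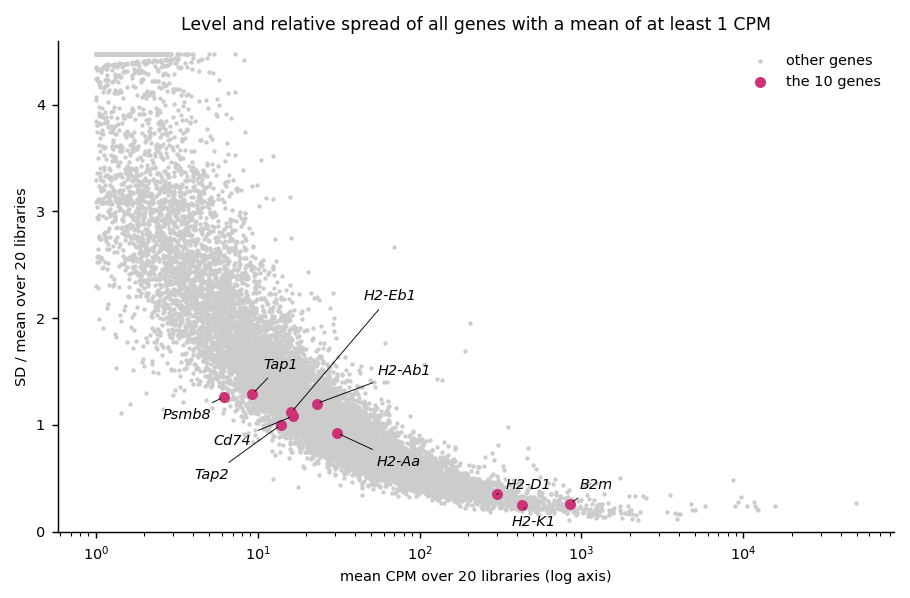
Mean CPM over the 20 libraries (horizontal log axis) and the SD divided by the mean (vertical axis from 0) of every gene with a mean of at least 1 CPM. Grey points are other genes and coloured points are the 10 genes, which run within the cloud from 0.251 for H2-K1 to 1.29 for Tap1.

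The spread of the 10 genes over the 20 libraries was near that of other genes of their level. The SD divided by the mean was 0.262 for B2m, 0.251 for H2-K1 and 0.350 for H2-D1, and the medians over the genes within 1.5-fold of their means were 0.234, 0.304 and 0.346. For the class II genes it was 1.08 for Cd74, 0.923 for H2-Aa, 1.20 for H2-Ab1 and 1.12 for H2-Eb1, against medians of 1.24, 0.948, 1.07 and 1.25. For Tap1, Tap2 and Psmb8 it was 1.29, 0.999 and 1.26, against higher medians of 1.61, 1.35 and 1.92. Genes at the level of Tap1 and Psmb8 had no count in a median of 10 and 12 of the 20 libraries, compared with 8 and 9 for these genes themselves.

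The other genes of the class I pathway did not pass the test in any comparison. Of 26 listed genes, 20 could be tested between sham + v and OVX + v, 18 between OVX + E2 and OVX + v, 20 between OVX + RAL and OVX + v and 20 between OVX + RAL and OVX + E2, and 0 were called in each. The median log2 fold change of the tested genes was 0.17, 0.11, 0.25 and 0.49, beside -0.02, -0.06, -0.03 and 0.01 over all genes. The 3 with the highest level were Calr (830 CPM), Pdia3 (352 CPM) and Canx (320 CPM), each detected in all 20 libraries. The class I regulator Nlrc5, chosen after its values were seen, was detected in 2 libraries, sham + v replicate 1 (45 counts) and OVX + RAL replicate 19 (34 counts). Of the 3 constitutive proteasome subunits that immunoproteasome subunits replace, Psmb6 (176 CPM), Psmb5 (125 CPM) and Psmb7 (58.9 CPM), 0 were called in each comparison.

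Of the 18 listed genes of the class II pathway, 12 could be tested in each comparison and 0 were called. The median log2 fold change was -0.28 in sham + v, -0.29 in OVX + E2 and 0.46 in OVX + RAL against OVX + v, and 0.23 between OVX + RAL and OVX + E2. The lysosomal cathepsins Ctsb (424 CPM) and Ctsl (312 CPM) and the thiol reductase Ifi30 (88.4 CPM), which prepare antigens, had the highest levels. H2-Eb2, H2-DMb2 and H2-Oa had no counts in the 20 libraries. Ciita, the master regulator of class II transcription, also chosen after its values were seen, had 3 or more counts in 3 libraries only, with 83 counts in sham + v replicate 4, 22 in OVX + RAL replicate 19 and 5 in sham + v replicate 3.

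Of the interferon signalling genes, which act upstream of MHC transcription or respond to the same signal, 24 were listed and 23 tested between OVX + RAL and OVX + v. Ifit3, an antiviral effector (log2 fold change 2.73, edgeR adjusted p = 9.08e-05), and Ifi27l2a, another interferon-induced gene (1.37, 0.0304), were higher in OVX + RAL, and 0 were lower. The median log2 fold change of the 23 genes was 0.80, with 20 above 0, while the median over all genes was -0.03. Both calls were lost without OVX + RAL replicate 17, which held 769 CPM of Ifit3 and 1737 CPM of Ifi27l2a. Without it the log2 fold change was 1.73 for Ifit3 (edgeR adjusted p = 0.566) and 0.51 for Ifi27l2a (edgeR adjusted p = 0.787). The count of called genes was also 0 with DESeq2, with the default filter of edgeR, with the robust fit and with all 4 groups in 1 fit. It was 1 with limma and without OVX + v replicate 6, 8 or 9. In OVX + RAL replicate 17, B2m was the highest of the 20 libraries, and Psmb8 and Tap1 stood at 15.1 and 11.8 CPM, while H2-K1 and H2-D1 lay near the middle of their ranges. In the other 3 comparisons 0 interferon signalling genes were called.

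The cells that make class II molecules were only partly visible in the marker genes. The 12 macrophage genes summed to 208 to 1134 CPM over the 20 libraries, with medians of 415 CPM in sham + v, 497 CPM in OVX + v, 454 CPM in OVX + E2 and 440.5 CPM in OVX + RAL, and 0 of them were called in each comparison. Lyz2 had by far the highest mean of them (227 CPM, detected in all 20 libraries), and C1qc the next (50.7 CPM, 15 libraries). Adgre1, Aif1 and Cd68 were detected in 5, 4 and 9 libraries. The 5 leukocyte genes summed to 0 to 36.7 CPM in sham + v, 1.49 to 113 CPM in OVX + v, 27.9 to 72.9 CPM in OVX + E2 and 15.9 to 69.5 CPM in OVX + RAL, with medians of 0, 69.6, 51.4 and 45.8 CPM, and 0 of them were called in each comparison. Cd52, Cd53 and Coro1a had no counts in sham + v and were detected in 3, 2 and 1 of the OVX + v libraries (edgeR adjusted p = 0.363 for each). Ptprc, the common leukocyte antigen, was detected in 3 OVX + RAL libraries and had no counts in the other 3 groups. The 8 dendritic cell genes summed to at most 75.6 CPM. Among them, Zbtb46 was detected in 13 libraries (mean 13.1 CPM over the 20 libraries), Flt3, Itgax, Cd209a and Batf3 in 1 library each, and Xcr1, Clec9a and Ccr7 were at 0 in all 20 libraries. The 7 B cell genes summed to at most 62.3 CPM, with Ms4a1, Pax5, Ighm and Igkc among those at 0. Cd79a, a B cell receptor subunit, was detected in 15 libraries with a mean of 13.1 CPM, near the level of Cd74 (16.5 CPM), and Cd79b in 2 libraries. The 9 T and NK cell genes summed to at most 70.3 CPM, with Cd3e, Cd3g, Cd8a, Trac and Gzma at 0 and Cd4 detected in 3 libraries. In OVX + RAL replicate 19, Cd74 and H2-Ab1 were far above the rest of their group. H2-Aa (74.5 CPM) and H2-Eb1 (33.1 CPM) were also the highest of the group there. This library also held the highest level of Bpifa1, a gene of the middle-ear mucosa (1738 CPM). Bpifa1 was called higher in OVX + RAL than in OVX + E2 (log2 fold change 3.25, edgeR adjusted p = 8.1e-10), although OVX + E2 replicate 11 (231 CPM) lay above 3 of the 5 OVX + RAL libraries. The call rested on replicate 19, without which the log2 fold change was 1.74 (edgeR adjusted p = 0.453), and without OVX + E2 replicate 11 the log2 fold change was 6.52. The call was also lost with DESeq2, the default filter of edgeR and the robust fit. The part of macrophages, of other leukocytes, of dendritic cells, of B cells or of mucosa in the levels of the class II genes was not tested.

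By their order over the 20 libraries, the genes most like the mean of the 4 class II genes among 7257 genes with a mean of at least 20 CPM were Dld (Spearman's rho 0.733), Sh3bgrl (0.732), Larp4b (0.720), Igfbp4 (0.690) and Slc35b2 (0.685). Those most like the mean of B2m, H2-K1 and H2-D1 were Eif5a (0.794), Msi2 (0.747), Wdr6 (0.719), Celsr2 (0.717) and Irf2bp1 (0.7098). These values are the highest of 7257 over libraries that share depth and normalization, and are given as a description.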

How the data were processed

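The series holds 20 utricle RNA libraries, 5 in each of 4 groups, and the groups and replicate numbers were taken from the labels. Per the methods of the study, the authors cut poly(A), adaptors and ends of low quality, took off 12 nucleotides at the start of each read, dropped reads under 20 nucleotides, and mapped and counted them on GRCm39 in CLC Genomics Workbench. The deposited total counts, which are unnormalized counts of reads per gene, were the only values used. The deposited CPM, TPM and RPKM columns and the authors' comparisons (fold changes and p-values) were not used. The tables held 0 columns of other samples, and the labels give no batch. Reads carried no molecular identifiers, so that floors and intervals of counts cover counting error only.

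The quasi-likelihood test of edgeR 4.0.16 (R 4.3.3) was run on genes whose counts summed to at least 10 in the 10 libraries of a comparison. Library sizes were the total counts. The Benjamini-Hochberg adjustment covered all genes tested, and the threshold was 0.05. The standard error is the size of the log2 fold change over the square root of F, and 95% intervals use the degrees of freedom of that test. Levels are CPM from the library totals. Correlations used log2(CPM + 1), with 100000 permutations, two-sided. The alternatives were TMM normalization, DESeq2 1.42.0, no filter, the default filter of edgeR, limma 3.58.1 on log2(CPM + 1), the robust fit, 1 fit of all 4 groups, and fits without each library. The subsets of libraries for Tap1 and Psmb8 and the alternatives for the interferon list, Ifit3, Ifi27l2a and Bpifa1, and the Tap1 bounds and Psmb8 ratios without 1 library were chosen after seeing the data. Python 3.11.15 with scipy 1.17.1 served for the rest. The fits were also run on simulated data, and the outcome is not reported here. The 10 genes and all gene lists were chosen with earlier results of these data known. The genes named were the 10 genes, in each pathway list those past the threshold and otherwise the 3 with the highest mean CPM, and the 5 genes most like each class in Spearman's rho. Genes named outside this rule, among them marker genes, neighbours of the 10 genes and genes without counts, were picked after their values were seen. The gene coordinates are those of the deposited tables.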

Additional observations from a re-analysis of the deposited data

Results flagged for a closer look

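In 3 of the 40 sets of 5 libraries (10 genes in 4 groups), 1 library lay far from the other 4 by Dixon's criterion. Chance alone flags about 1 in 20 sets of continuous values, but this rate does not hold for sets with several values at 0, which many of these were. Psmb8 had 2.10 CPM (3 counts) in OVX + E2 replicate 15 and no counts in the other 4 libraries of that group, so that any count there would have met the criterion. Cd74 had 62.96 CPM and H2-Ab1 71.3 CPM in OVX + RAL replicate 19, both the highest of their group.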

How the results depend on the processing

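None of the 10 genes passed the threshold in any of 275 results under other settings or in any of 400 results with 1 library left out, and 265 and 345 of these kept the sign of the log2 fold change. The default filter of edgeR removed 5 of the 40 results of the 10 genes. The sign turned only where the value was small or the interval wide. Against OVX + v it turned in sham + v for H2-Ab1 (limma -0.61), in OVX + E2 for H2-D1 (TMM -0.11, DESeq2 -0.0099), Cd74 (TMM -0.11, limma -0.30) and Tap2 (limma -0.34), and in OVX + RAL for H2-K1 (TMM 0.0145, DESeq2 0.0050) and H2-Ab1 (limma -0.26). Between OVX + RAL and OVX + E2 it turned for H2-Eb1 (limma 0.20). TMM moved the median of all genes from -0.06 to -0.17 in OVX + E2 against OVX + v, and from 0.01 to 0.16 between OVX + RAL and OVX + E2, and limma moved it to -0.46 and 0.43 there and to -0.15 in sham + v.

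Without 1 library, the log2 fold change in sham + v ran from -0.30 to 0.018 for B2m, -0.14 to 0.089 for H2-K1, -0.68 to 0.41 for Cd74, -1.25 to 0.83 for H2-Ab1 and -0.74 to 0.82 for H2-Eb1. In OVX + E2 it ran from -0.20 to 0.012 for B2m, -0.93 to 0.49 for Cd74, -0.10 to 0.20 for H2-D1, -0.37 to 1.09 for H2-Eb1 and -0.24 to 0.84 for Tap2. In OVX + RAL it ran from -0.87 to 0.77 for Cd74, -1.72 to 1.08 for H2-Ab1, -0.40 to 0.023 for H2-D1, -0.40 to 0.81 for H2-Eb1 and -0.15 to 0.13 for H2-K1, and between OVX + RAL and OVX + E2 from -0.90 to 1.24 for Cd74, -0.76 to 0.45 for H2-Eb1 and -0.16 to 1.38 for Tap2.

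The number of genes called among all tested changed more, and the cause was not tested. Between sham + v and OVX + v it was 2, and 1 with TMM, 12 with DESeq2, 0 with the default filter, 4 with limma and 0 with the robust fit (1 to 10 without 1 library, 10 without sham + v replicate 1 and 1 without sham + v replicate 2 or OVX + v replicates 7 or 10). For OVX + E2 it was 8, and 38 with DESeq2, 1 with the default filter and 4 with the robust fit (6 to 17 without 1 library, 17 without OVX + E2 replicate 11). For OVX + RAL it was 4, and 0 with the default filter or the robust fit (3 to 11 without 1 library, 8 to 11 without OVX + v replicate 7 or OVX + RAL replicates 16, 18 or 20). Between OVX + RAL and OVX + E2 it was 10, and 42 with DESeq2, 0 with the default filter, 6 with the robust fit and 16 with all 4 groups (8 to 16 without 1 library, 16 without OVX + E2 replicate 11). The correlation of Tap1 and Psmb8 was -0.0346 over the 9 libraries with counts of both. The windows shared with other class I genes, 0% without mismatches, were 5.92% for H2-K1 and 5.33% for H2-D1 with up to 2 mismatches. No paired analysis was possible because the replicate numbers 1 to 20 are not shared between groups.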

Other observations

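Of the genes on the opposite strand of the 10 genes, Patl2, which overlaps the whole of B2m, had no counts in the 20 libraries, and Psmb9, which overlaps the start of Tap1, had 139 counts in 11 libraries. Psmb9 was highest in OVX + RAL replicate 19, with 28.3 CPM. This library had the highest H2-D1, Tap1, Cd74, H2-Aa, H2-Ab1 and H2-Eb1 of its group and the lowest B2m. It also held 1 of the 2 detections of Nlrc5 and 22 counts of Ciita, which no other OVX + RAL library had.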
